A study of Mus musculus with 12 samples.

Results

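The genes described here are 40 genes of the cell cycle that are commonly read as markers of proliferation, chosen by name from a list. The choice used no threshold on their values, but it was made with earlier results of these data known. All 40 were in the table of 24062 genes, and all 40 passed the filter that kept 15060 genes for testing. They were followed in tumours of the colon from 12 mice that carried transplanted bone marrow. St2 (symbol Il1rl1) encodes ST2, the receptor for the cytokine IL-33, and St2KO stands below for St2-/-. Each group is written as marrow_to_host and holds 3 libraries labelled as biological replicates. In WT_to_WT, wild-type mice carried wild-type marrow. In St2KO_to_WT, wild-type mice carried St2-/- marrow. In WT_to_St2KO, St2-/- mice carried wild-type marrow, and in St2KO_to_St2KO both were St2-/-. All 4 groups, the WT_to_WT controls included, were on the Balb/c background, were irradiated with 2 doses of 5 Gy, were given 8 weeks for the new marrow to grow, and received 6 weekly injections of 10 mg/kg azoxymethane (AOM), a carcinogen that acts on the colon. The tumours came 13 or 14 weeks after AOM ended, from 11 male mice and 1 female mouse (WT_to_St2KO replicate 3). Those at 14 weeks were WT_to_WT replicate 3, St2KO_to_WT replicate 3, WT_to_St2KO replicate 1 and St2KO_to_St2KO replicates 1 and 2. Ages are not given in the sources used here. Irradiation removes blood-forming cells, while epithelium, stroma and some long-lived leukocytes of the host remain, so each tumour mixes host and donor cells. The mice are numbered with 5 digits in the WT hosts and 3 digits in the St2KO hosts, and whatever that numbering stands for cannot be told apart from the host genotype.

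The cell cycle runs from a growth phase (G1) into DNA synthesis (S phase), a second gap (G2) and mitosis. D-type and E-type cyclins with their kinases release E2F transcription factors, which switch on the genes that license and copy DNA. Later the B-MYB and FOXM1 factors switch on the genes of mitosis, and the anaphase-promoting complex destroys mitotic cyclins so that the cell can divide. In the normal colon, dividing cells sit in the lower crypt, and in tumours driven by Wnt signalling, as those after AOM usually are, division spreads through the lesion. RNA of these genes is high in dividing cells of any type, so bulk RNA does not say which cells divide, and fewer dividing cells cannot be told apart from less of this RNA per cell.

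The promoters of the members are shown first, because the later results set the S phase genes beside the mitotic genes, which are switched on through different short motifs. RefSeq promoter windows (GRCm38.p6) were found for 30 of the 40 members, and the 250 bases before the start were searched on both strands. The E2F words searched were TTTCCCGC, TTTCGCGC, TTTGCCGC and TTTGGCGC. The cell cycle homology region (CHR), a site of late cell cycle genes, was searched as TTTGAA, and the NF-Y box as CCAAT. In the stretches of Mcm5 and Mcm6, subunits of the helicase that opens DNA at replication origins, capitals mark E2F words, which run together where words on the opposite strands overlap. Mcm5 is read from chr8:75109336-75109387 on the plus strand and Mcm6 from chr1:128359725-128359835 on the minus strand.
Mcm5: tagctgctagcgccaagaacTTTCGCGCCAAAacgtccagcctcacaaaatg
Mcm6: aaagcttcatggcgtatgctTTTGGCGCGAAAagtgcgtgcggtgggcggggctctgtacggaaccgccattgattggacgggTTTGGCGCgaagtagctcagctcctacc
In the mitotic genes Cdk1, Cdc20 and Ccnb2, capitals mark the CHR words and the NF-Y boxes, on either strand. The Cdk1 stretch also holds an E2F word, and the Mcm6 stretch above an NF-Y box, both left in lower case. They are read on the minus strand from chr10:69352913-69353140, chr4:118437344-118437416 and chr9:70421555-70421741.
Cdk1: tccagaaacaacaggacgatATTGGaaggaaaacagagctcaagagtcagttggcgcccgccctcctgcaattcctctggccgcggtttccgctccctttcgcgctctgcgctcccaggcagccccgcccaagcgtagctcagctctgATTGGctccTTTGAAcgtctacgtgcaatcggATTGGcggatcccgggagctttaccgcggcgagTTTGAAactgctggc
Cdc20: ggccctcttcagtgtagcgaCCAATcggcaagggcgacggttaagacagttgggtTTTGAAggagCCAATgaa
Ccnb2: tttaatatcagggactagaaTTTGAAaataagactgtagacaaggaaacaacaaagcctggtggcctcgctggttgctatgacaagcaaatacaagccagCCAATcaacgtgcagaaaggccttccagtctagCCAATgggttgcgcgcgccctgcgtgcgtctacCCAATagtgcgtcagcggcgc
Among the 13 members of S phase roles with a window, 4 (30.8%) held an E2F word and 1 (7.69%) a CHR word. Among the 17 mitotic genes and general markers, 1 (5.88%) held an E2F word and 7 (41.2%) a CHR word, each of these 7 together with an NF-Y box. Of the windows of all 27025 genes, 1.91% held an E2F word, 16.3% a CHR word, 34.5% an NF-Y box and 5.73% a CHR word and an NF-Y box. The NF-Y box was found in 8 of 13 S phase windows (61.5%) and 15 of 17 of the others (88.2%). A match describes these letters only and does not show that a factor binds there.

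The libraries matched their host labels in Il1rl1, which lay between 36.5 and 275 CPM (counts scaled to the size of the library) in the 6 WT hosts and between 7.3 and 25 in the 6 St2KO hosts (log2 fold change -3.42, SE 0.52, edgeR adjusted p = 0.00984). Its averaged marrow effect was -0.42 (SE 0.48, edgeR adjusted p = 0.999), so this gene does not check the marrow labels. Some Il1rl1 RNA, 7.91 to 13.4 CPM, was counted in St2KO_to_St2KO as well. The epithelial gene Epcam was at 1104 to 2596 CPM in all 12 libraries. Smooth muscle markers set 4 libraries apart: Myh11, the smooth muscle myosin, was at 424 and 262 CPM in St2KO_to_WT replicates 1 and 2 and at 628 and 240.4 CPM in WT_to_St2KO replicates 2 and 3, against 19.5 to 58.4 CPM in the other 8. The summed level of all 12 muscle markers was 310.3 to 589 CPM in WT_to_WT, 616 to 3188 in St2KO_to_WT, 417 to 3902 in WT_to_St2KO and 306 to 618 in St2KO_to_St2KO, and no marker was at 0. The mean log2 CPM of 11 markers of enteric neurons and glia was 1.81 to 3.26 in those 4 libraries and 0.88 or lower in the others. All 4 came 13 weeks after AOM, while the remaining replicate of St2KO_to_WT and of WT_to_St2KO came after 14 weeks. Within these groups, muscle level and time after AOM cannot be told apart. All 4 were also in groups whose marrow and host genotypes differ, so muscle level and that mismatch can be told apart only in part.

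Proliferation RNA was present in every tumour and the 3 St2KO_to_WT libraries alone covered the range of the 4 group means. Summed over the 40 genes, it came to 3019, 4043 and 3185 CPM in WT_to_WT and to 2481, 2209 and 3691 in St2KO_to_WT. The values were 2922, 2041 and 2614 CPM in WT_to_St2KO and to 2769, 2809 and 2680 in St2KO_to_St2KO. WT_to_WT replicate 2 and St2KO_to_WT replicate 3 were highest, and WT_to_St2KO replicate 2 and St2KO_to_WT replicate 2 were lowest. The group means of this sum lay between 2526 and 3416 CPM. As a share of the gene counts, before the scaling described below, the members made up 0.271, 0.393 and 0.312% in WT_to_WT and 0.239, 0.202 and 0.364% in St2KO_to_WT. That share was 0.283, 0.228 and 0.276% in WT_to_St2KO and 0.294, 0.288 and 0.287% in St2KO_to_St2KO. The mean log2 CPM of the members was 5.92 ± 0.2 in WT_to_WT, 5.61 ± 0.4 in St2KO_to_WT, 5.46 ± 0.25 in WT_to_St2KO and 5.63 ± 0.08 in St2KO_to_St2KO (SD, n = 3 each). Within a group, the median SD of a member was 0.43 in St2KO_to_WT, where that of all tested genes was 0.26. In the other groups the members varied about as much as other genes or less: 0.24 against 0.29 in WT_to_WT, 0.28 against 0.32 in WT_to_St2KO and 0.14 against 0.2 in St2KO_to_St2KO.

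The members moved together from library to library. WT_to_WT replicate 2 held the highest value of 25 members and St2KO_to_WT replicate 3 that of 13, while the highest value of the mitotic kinase gene Plk1 was in WT_to_St2KO replicate 3. WT_to_St2KO replicate 2 held the lowest value of 23 members, St2KO_to_WT replicate 2 that of 9 and St2KO_to_WT replicate 1 that of 5. These 3 libraries are also the ones with the most Myh11 RNA. The ratio of the highest to the lowest library ran from 1.72 for Mcm7 to 4.17 for Rrm2.

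**Figure D1:**
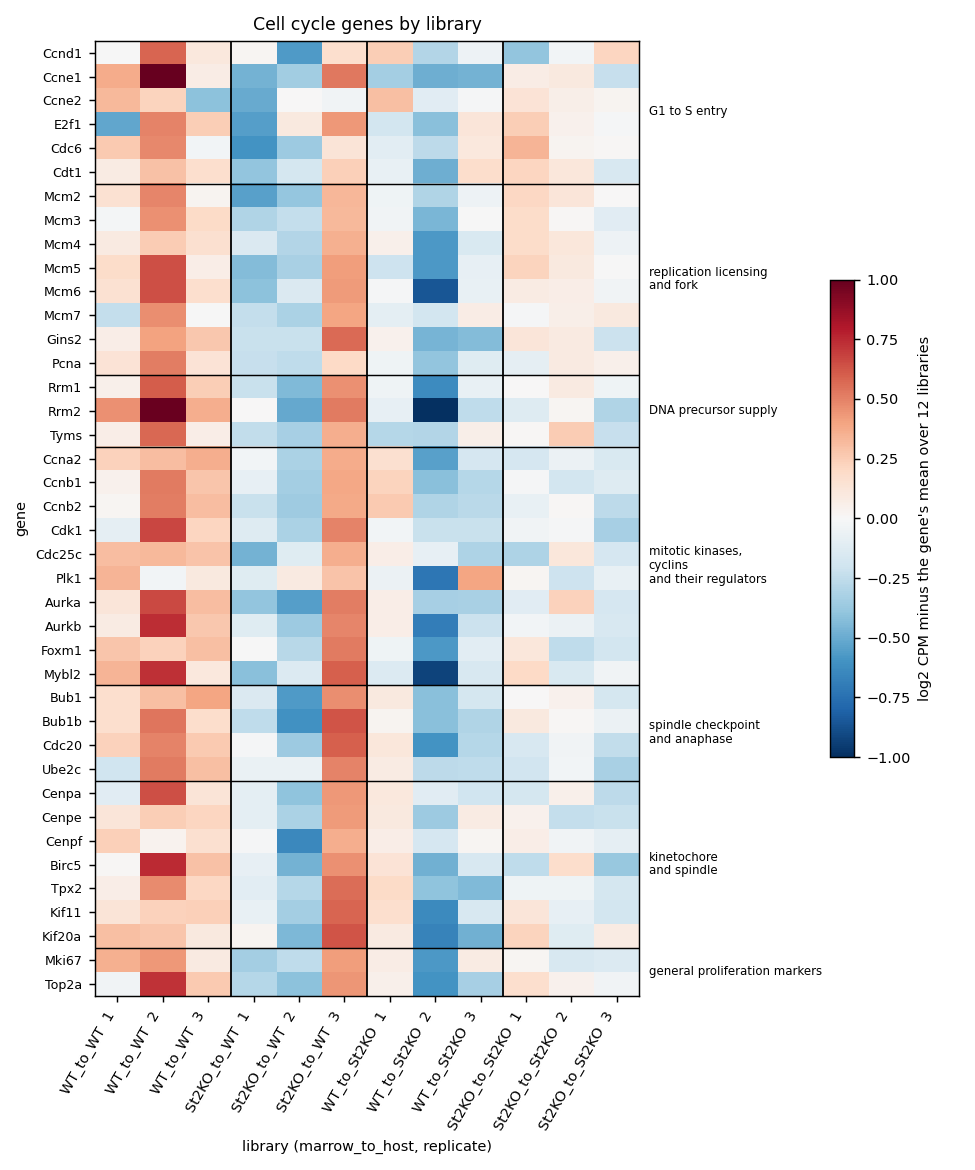
Each row is 1 of the 40 genes, ordered by role, and each column is 1 library; colour gives log2 CPM minus the gene's mean over the 12 libraries, with the scale ending at 1 on either side. The columns of WT_to_WT replicate 2 and St2KO_to_WT replicate 3 are high in most rows, and WT_to_St2KO replicate 2 and St2KO_to_WT replicate 2 are low.

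Per kilobase of exon, the most abundant member was Ccnd1, the D-type cyclin that carries growth signals into the cycle, at 88.3 CPM per kb over all libraries. Plk1 followed at 45.8, Cdc20 at 37.9 and Ccnb2 at 35 CPM per kb. The lowest were Ccne2, an E-type cyclin, at 1.37 CPM per kb and Cdc25c, a phosphatase that activates Cdk1, at 1.97. Total counts over the 12 libraries ran from 680 for Ccne2 to 59047 for Ccnd1. The exons of 10 members (among them Ccnd1, Ccna2, Plk1, Cdc20 and Ube2c) overlap exons of a gene on the other strand, and with the strand setting unknown their reads may include that gene's. The 4 members Pcna, Tyms, Ccnb1 and Ccnb2 have named pseudogenes, which makes their counts less certain.

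The first comparison asked whether proliferation RNA follows the ST2 genotype of the host, averaged over both marrows. No member passed the test in edgeR (0 of 40 called), where 1.37% of all 15060 genes were called. The members' log2 fold changes, St2KO host against WT host, had a median of -0.25, with 38 of 40 below 0, while all tested genes had a median of 0 with 7554 of 15060 below 0. As the members moved together from library to library, they are not 40 independent observations. The same holds for every count of members in the comparisons below. At an unadjusted p under 0.05, 6 members were lower and 0 higher, and 10.8% of all genes were lower at that threshold. This count depends on single libraries: it was 12 without St2KO_to_WT replicate 2, 3 without WT_to_WT replicate 3, WT_to_St2KO replicate 3 or St2KO_to_St2KO replicate 2, and 2 without WT_to_WT replicate 2 or St2KO_to_St2KO replicate 1. It was 1 without St2KO_to_WT replicate 3, WT_to_St2KO replicate 2 or St2KO_to_St2KO replicate 3. No member's libraries were separate between the 6 WT and 6 St2KO hosts (1.71% of all genes were separate and lower). The 6 members were Rrm2, Ccne1, Cdc20, Foxm1, Ube2c and Ccna2, and the lowest adjusted p among the members was 0.153, for Rrm2.

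Markers of other cells moved in either direction in the same averaged host effect, with none called. Of 10 tumour crypt base markers, 8 were above 0 (median 0.73), and 6 were higher at an unadjusted p under 0.05. All 7 endothelial markers were above 0 (median 0.47, 2 at that threshold), as were all 6 B cell markers (median 0.47, 0 at that threshold). Markers of T cells, germinal centre B cells and fibroblasts had medians below 0 (-0.44, -0.67 and -0.19). At that threshold, 1 of 7 T cell markers tested, 4 of 6 germinal centre B cell markers and 0 of 8 fibroblast markers were lower. All 14 epithelial markers were below 0, with a median of -0.46 and 7 at an unadjusted p under 0.05. All 7 macrophage markers tested were below 0 (median -0.57, 3 at that threshold), as were all 8 general leukocyte markers (median -0.39, 0 at that threshold). The epithelial markers summed to 13174 to 17078 CPM in WT_to_WT, 15291 to 18599 in St2KO_to_WT, 7079 to 15854 in WT_to_St2KO and 9948 to 12589 in St2KO_to_St2KO. The macrophage markers summed to 547 to 1005, 489 to 645, 237 to 468 and 509 to 515 CPM in the same order of groups. The leukocyte markers summed to 330.4 to 547, 243 to 682, 159 to 475 and 282 to 766 CPM. No marker of these lists was at 0 in a group. With the epithelial mean as a covariate the members' host median was -0.24, with 37 of 40 below 0 and 3 at an unadjusted p under 0.05. The part of macrophages, other leukocytes, crypt base cells and endothelium in the members' values was not tested.

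Among the genes of entry into S phase, Ccnd1 was at 406, 609.8 and 439 CPM in WT_to_WT, 412, 275 and 457 in St2KO_to_WT, 483, 332 and 393 in WT_to_St2KO, and 310.4, 399.9 and 473 in St2KO_to_St2KO. All 4 groups overlapped, and its host log2 fold change was -0.11 (SE 0.17, adjusted p = 0.761). Cdt1, which loads the helicase onto origins, was at 42.9, 50 and 45.8 CPM in WT_to_WT, 30.8, 35.9 and 48 in St2KO_to_WT, 38.5, 29 and 46.1 in WT_to_St2KO, and 47.3, 44 and 36.4 in St2KO_to_St2KO. Its host value was near 0, at -0.07 (SE 0.14). Ccne1, the E-type cyclin that starts S phase with Cdk2 (chr7:38097984-38107534, minus strand), was at 32.5, 58.4 and 26.4 CPM in WT_to_WT, 18, 19.7 and 36.3 in St2KO_to_WT, 19.8, 17.8 and 18 in WT_to_St2KO, and 26.5, 26.9 and 21.4 in St2KO_to_St2KO. The 3 WT_to_St2KO libraries lay below all 3 WT_to_WT libraries, and the host log2 fold change averaged over marrows was -0.53 (SE 0.23, adjusted p = 0.221).

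Among the genes of DNA copying, Mcm2 of the replicative helicase was at 102, 128 and 93.3 CPM in WT_to_WT, 62.8, 69.9 and 115 in St2KO_to_WT, 88.5, 74 and 88 in WT_to_St2KO, and 105, 99.3 and 91.6 in St2KO_to_St2KO. Mcm5 of the same ring was at 97.1, 133 and 89.2 CPM in WT_to_WT, 63.2, 68.2 and 114 in St2KO_to_WT, 73.9, 57.1 and 80.5 in WT_to_St2KO, and 99.4, 91.2 and 85 in St2KO_to_St2KO. Both were separate, and lower, in WT_to_St2KO against WT_to_WT, while their host values averaged over marrows were -0.05 (SE 0.15) for Mcm2 and -0.21 (SE 0.17) for Mcm5. Rrm1 and Rrm2 encode the large and small subunits of ribonucleotide reductase, which makes the building blocks of DNA. Rrm1 was at 108, 159 and 124 CPM in WT_to_WT, 89.4, 77 and 144 in St2KO_to_WT, 101, 67.4 and 99.5 in WT_to_St2KO, and 105, 111 and 102 in St2KO_to_St2KO. Rrm2 (chr12:24708241-24714146, plus strand) was at 91.1, 131 and 84.9 CPM in WT_to_WT, 66.5, 46.4 and 94.7 in St2KO_to_WT, 62.5, 31.5 and 55.5 in WT_to_St2KO, and 60.4, 66.9 and 53.7 in St2KO_to_St2KO. Of the 6 St2KO hosts, none reached the lowest WT_to_WT value of Rrm2, but St2KO_to_WT replicates 1 and 2 lay among them. The host log2 fold change of Rrm2 was -0.62 (SE 0.21, interval -1.08 to -0.15, adjusted p = 0.153), and that of Rrm1 was -0.26 (SE 0.17).

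Among the mitotic kinases and cyclins, Ccna2 (cyclin A2, active from S phase to early mitosis) was at 109, 115 and 119 CPM in WT_to_WT, 91.1, 74.6 and 120.3 in St2KO_to_WT, 104, 63.6 and 82.4 in WT_to_St2KO, and 82.5, 88.9 and 83.4 in St2KO_to_St2KO. Foxm1, a transcription factor of mitotic genes, was at 56.9, 55.1 and 57.8 CPM in WT_to_WT, 46.9, 38.7 and 67.4 in St2KO_to_WT, 45.7, 31.6 and 43.6 in WT_to_St2KO, and 50.7, 39.4 and 41.4 in St2KO_to_St2KO. All 6 St2KO hosts lay below the 3 WT_to_WT libraries in both genes, and the St2KO_to_WT libraries spanned them. The host log2 fold change was -0.31 (SE 0.14, adjusted p = 0.232) for Ccna2 and -0.35 (SE 0.15, adjusted p = 0.213) for Foxm1. Plk1, a kinase that drives entry into mitosis, was at 125, 97.1 and 106 CPM in WT_to_WT, 90.7, 105 and 120.3 in St2KO_to_WT, 95.1, 59.9 and 129.9 in WT_to_St2KO, and 100.5, 85.5 and 93.9 in St2KO_to_St2KO. Here the highest and the lowest value of the series were both in WT_to_St2KO, and the host value was -0.19 (SE 0.17).

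Cdc20 and Ube2c serve the anaphase-promoting complex, the first as its activator and the second as its ubiquitin-conjugating enzyme. Cdc20 was at 80.5, 97 and 82.5 CPM in WT_to_WT, 68.3, 53.5 and 104 in St2KO_to_WT, 74.3, 45.4 and 56.4 in WT_to_St2KO, and 61.7, 67.2 and 58 in St2KO_to_St2KO. Ube2c was at 69.1, 114 and 98.1 CPM in WT_to_WT, 76.1, 76 and 112 in St2KO_to_WT, 84, 66.4 and 66.6 in WT_to_St2KO, and 69.6, 77.9 and 63.4 in St2KO_to_St2KO. For Cdc20, but not Ube2c, all 6 St2KO hosts lay below the 3 WT_to_WT libraries. Their host log2 fold changes were -0.42 (SE 0.17, adjusted p = 0.204) for Cdc20 and -0.35 (SE 0.15, adjusted p = 0.22) for Ube2c.

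Birc5 (survivin, part of the complex that guides chromosome attachment) was at 65.3, 108 and 79.2 CPM in WT_to_WT, 61.1, 46.4 and 88.8 in St2KO_to_WT, 70.9, 46.3 and 57.7 in WT_to_St2KO, and 54.1, 73.1 and 49.7 in St2KO_to_St2KO. Tpx2, which builds the spindle and activates Aurora A, was at 76.8, 102 and 85 CPM in WT_to_WT, 68.2, 60.3 and 108 in St2KO_to_WT, 83.8, 55.6 and 54.1 in WT_to_St2KO, and 71.3, 71.3 and 65 in St2KO_to_St2KO. The groups overlapped in Birc5 and, between WT_to_WT and WT_to_St2KO, in Tpx2, with host values of -0.34 (SE 0.19) and -0.32 (SE 0.16). The general marker Mki67 (Ki-67, chr7:135689784-135716361, minus strand) was at 256, 271 and 214 CPM in WT_to_WT, 158, 168 and 267 in St2KO_to_WT, 211, 135 and 212 in WT_to_St2KO, and 203, 179 and 182 in St2KO_to_St2KO. Every St2KO host lay below every WT_to_WT library, and the closest values were 212 and 214 CPM. The host log2 fold change of Mki67 was -0.24 (SE 0.16, interval -0.59 to 0.11, adjusted p = 0.418). Top2a, the topoisomerase that untangles DNA before division, was at 203, 343 and 249.6 CPM in WT_to_WT, 171, 157 and 282 in St2KO_to_WT, 216, 138 and 165 in WT_to_St2KO, and 234, 215 and 202 in St2KO_to_St2KO. Its groups overlapped, and its host value was -0.26 (SE 0.18, adjusted p = 0.448).

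**Figure D2:**
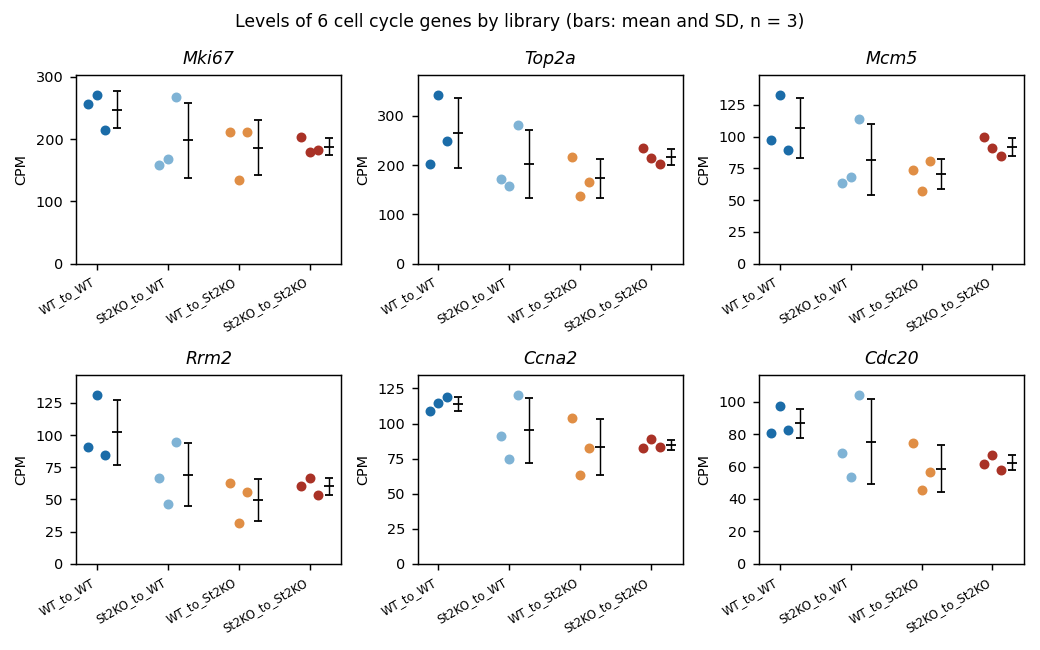
CPM of 6 members in each of the 12 libraries, 1 point per library with bars for the mean and SD of each group (n = 3), on axes that start at 0. All WT_to_WT points lie above all WT_to_St2KO points in each panel except that of Top2a, and the 3 St2KO_to_WT points spread across the range of the other groups.

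By role, the host medians averaged over marrows were -0.09 for entry into S phase (6 genes), -0.16 for licensing and the fork (8), -0.26 for precursor supply (3), -0.29 for mitotic kinases and cyclins (10), -0.31 for checkpoint and anaphase (4) and -0.26 for kinetochore and spindle (7). The 2 members above 0 were both in the role of entry into S phase. The interval of a single member was wide against these medians, with SEs from 0.11 to 0.23.

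The host comparison was then made within each marrow. With WT marrow, 0 of 40 members were called (0.159% of all genes were), all 40 were below 0 and the median was -0.44, against 0.01 for all genes. In 22 of the 40, all 3 WT_to_St2KO libraries lay below all 3 WT_to_WT libraries, where 9.82% of all genes did. At an unadjusted p under 0.05, 12 members were lower, where 8.33% of all genes were. This count was 25 without St2KO_to_WT replicate 3, 19 without WT_to_St2KO replicate 1, 7 without WT_to_WT replicate 3 and 2 without WT_to_WT replicate 2 or WT_to_St2KO replicate 2. With the smooth muscle mean as a covariate it was 0. Macrophage markers were lower in the same comparison, with a median of -1.12, 7 of 7 below 0, 5 at an unadjusted p under 0.05 and none called. The largest values were Ccne1 at -1.07 (SE 0.32, interval -1.78 to -0.36, adjusted p = 0.175) and Rrm2 at -1.04 (SE 0.3, interval -1.7 to -0.38, adjusted p = 0.159). DESeq2 called these 2 members in this comparison, with adjusted p of 0.0419 for Ccne1 and 0.0302 for Rrm2. The separate genes covered 6 of 8 members of licensing and the fork, 3 of 3 of precursor supply, 6 of 10 mitotic kinases and cyclins, 3 of 4 of checkpoint and anaphase, 2 of 7 of kinetochore and spindle, 1 of 6 of entry into S phase and 1 of 2 general markers.

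With St2KO marrow the same host comparison gave a median of -0.04, with 18 members above 0 and 22 below. No member was called (0.0598% of all genes were), and 0 had an unadjusted p under 0.05, where 7.36% of all genes were lower at that threshold. Ccne2 was the 1 member separate between the groups and higher in St2KO_to_St2KO, where 10.6% of all genes were. No member was separate and lower, where 12.7% of all genes were. The value of Rrm2 was -0.2 (SE 0.3) and that of Ccne1 0.02 (SE 0.32). The median of -0.04 rests on St2KO_to_WT replicate 3: without it the median was 0.26. That library had the lowest muscle level of its group and was its only library at 14 weeks.

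Here the S phase and mitotic genes lay mostly on opposite sides of 0, a split that was made after the data had been seen. Of the 17 members of S phase roles (entry, licensing and fork, precursors), 15 were above 0, with a median of 0.06. Of the 21 members of mitotic roles, 19 were below 0, with a median of -0.14. The difference between the roles is small against the SE of a member (0.16 to 0.32) and was not tested. Without St2KO_to_WT replicate 3 both medians were above 0, at 0.31 and 0.14. Without its replicate 1 or 2, 8 of the 17 S phase members were above 0, with medians of -0.04 and -0.01, and the mitotic medians were -0.21 and -0.28. With the smooth muscle mean as a covariate both lay below 0, at -0.12 for S phase roles (15 of 17 below 0) and -0.4 for mitotic roles (21 of 21). With weeks after AOM as a covariate the medians were 0.02 for S phase roles (11 above 0 and 6 below) and -0.2 for mitotic roles (21 below). The mitotic median was the lower one in each of these fits. Other genes gave the same order: of 45 further replication genes 25 were above 0 (median 0.02), and of 50 further mitosis genes 14 were (median -0.1). Within single libraries, the mean log2 CPM of mitotic members minus that of S phase members was -0.25, -0.26 and -0.26 in St2KO_to_St2KO. It was -0.1, -0.25 and -0.01 in WT_to_WT, 0.05, -0.2 and 0 in St2KO_to_WT, and 0, -0.12 and -0.26 in WT_to_St2KO. For the members, the 3 St2KO_to_St2KO libraries were thus at the low end of the range, which WT_to_WT replicate 2 and WT_to_St2KO replicate 3 shared. The further mitosis genes minus the further replication genes gave 0.12, 0.11 and 0.1 in St2KO_to_St2KO. There St2KO_to_WT replicate 2 (0.02) and WT_to_St2KO replicates 2 and 3 (0.06 each) were lower, and WT_to_WT replicate 2 was at 0.1. St2KO_to_St2KO was thus not lowest in these wider lists.

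The second question was whether proliferation RNA follows the genotype of the marrow. Averaged over hosts, no member was called, as was no gene of the whole table (0%), and 0 members but 1.48% of all genes were lower at an unadjusted p under 0.05. The members' median was -0.07 with 33 of 40 below 0, against 0 and 7660 of 15060 for all genes, and 0 members were separate and lower (0.073% of all genes). The smallest p-values belonged to Ccnb2, Ccnd1 and Cdc25c. Ccnb2, cyclin B2 of the mitotic kinase Cdk1, was at 53.1, 74.7 and 64.9 CPM in WT_to_WT, 44.9, 41 and 68.2 in St2KO_to_WT, 62.9, 42.5 and 43.6 in WT_to_St2KO, and 49.9, 53 and 43.7 in St2KO_to_St2KO. Cdc25c was at 11.8, 12 and 11.6 CPM in WT_to_WT, 6.81, 8.74 and 12.3 in St2KO_to_WT, 9.99, 8.96 and 7.65 in WT_to_St2KO, and 7.64, 10.3 and 8.43 in St2KO_to_St2KO. Groups with the same host and different marrow overlapped in both genes. The marrow log2 fold changes were -0.17 (SE 0.16, interval -0.52 to 0.17) for Ccnb2, -0.19 (SE 0.17, interval -0.57 to 0.19) for Ccnd1 and -0.18 (SE 0.17, interval -0.56 to 0.2) for Cdc25c, all with an adjusted p of 0.999.

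**Figure D3:**
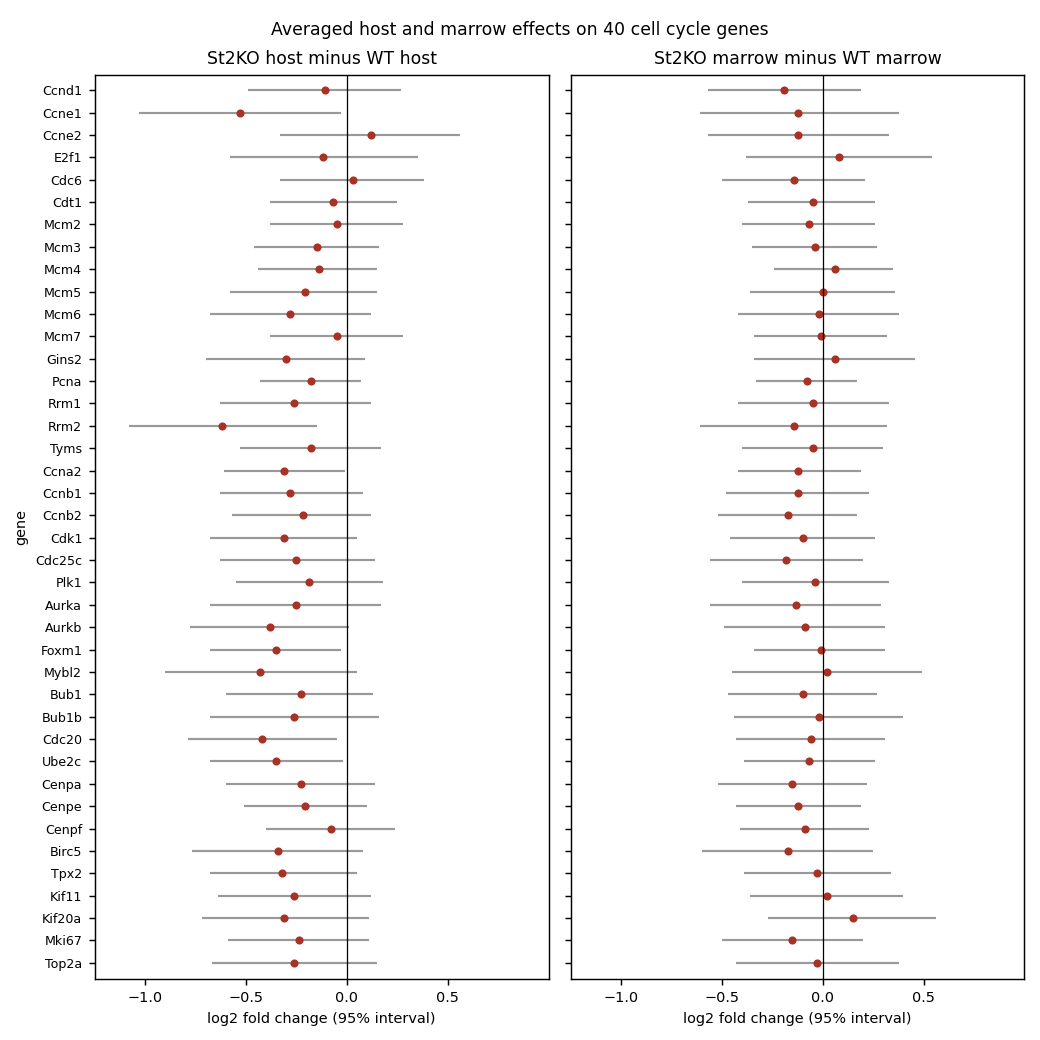
Log2 fold changes of the 40 members, 1 row per gene, for the averaged host effect (left) and the averaged marrow effect (right), as points with 95% intervals from edgeR. In the host panel 38 of 40 points are below 0, with Rrm2 farthest at -0.62, and in the marrow panel the interval of each gene crosses 0.

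By host, the marrow medians had opposite signs without a covariate. With the smooth muscle mean as a covariate they were -0.01 in WT hosts (19 members above 0 and 21 below) and -0.14 in St2KO hosts (33 below), so the sign in St2KO hosts turned. In WT hosts St2KO marrow gave a median of -0.28, with 40 of 40 below 0 and no member called (0% of all genes). No member was separate, where 5.41% of all genes were separate and lower, and 3.12% of all genes but 0 members were lower at an unadjusted p under 0.05 (26 without St2KO_to_WT replicate 3). In St2KO hosts the median was 0.15, with 33 of 40 above 0 and again no member called (0% of all genes). There 4 members were separate and higher with St2KO marrow, namely Ccne1, Mcm2, Mcm5 and Rrm1, where 4.58% of all genes were. None was separate and lower (4.23% of all genes), and 0 had an unadjusted p under 0.05, where 2.31% of all genes were lower. The host comparison with WT marrow and the marrow comparison in WT hosts share the WT_to_WT libraries, and the marrow comparison in St2KO hosts shares both of its groups with the host comparisons, so these values are not independent.

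The interaction, which is the host effect with St2KO marrow minus that with WT marrow, tests this difference. It was above 0 for all 40 members with a median of 0.4, against -0.01 for all genes, and no member or other gene was called (0%). At an unadjusted p under 0.05, 4 members were higher, where 3.07% of all genes were, and 0 were lower, where 4.52% were. These were Ccne1 at 1.09 (SE 0.45), Mcm5 at 0.76 (SE 0.33), Cdc6, a loader of the helicase, at 0.72 (SE 0.32), and Pcna, the sliding clamp of DNA polymerase, at 0.55 (SE 0.23). The lowest adjusted p was 0.643. The count of 4 ran from 0 to 21 over fits without 1 library each, with 21 without St2KO_to_WT replicate 3 and 0 without WT_to_WT replicate 2, St2KO_to_WT replicate 1 or 2, WT_to_St2KO replicate 2 or St2KO_to_St2KO replicate 2. It was 1 without St2KO_to_St2KO replicate 1 or 3.

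Markers of several cell types moved with these differences. All 12 muscle markers had an interaction below 0, opposite in sign to the 40 members, with a median of -4.49. All 12 had an unadjusted p under 0.05 in edgeR, and the lowest adjusted p was 0.539. All 11 markers of enteric neurons and glia were below 0 as well, with a median of -4.79 and 10 at an unadjusted p under 0.05. Macrophage markers had the sign of the members, with an interaction median of 1.13, 6 of 7 above 0, 4 at an unadjusted p under 0.05 and none called (smallest adjusted p = 0.559). In a fit of the 4 groups with the muscle mean as a covariate, the log2 level of all 40 members was lower per unit of muscle mean, with a median slope of -0.17 (0 for all genes) and 0 members called, where 1.25% of all genes were. This slope was read out after the data had been seen. High muscle levels were found only where marrow and host genotypes differ, so this covariate overlaps with the interaction, and whether muscle accounts for it was not tested. With the covariate the interaction median was -0.15, with 29 of 40 below 0. The host median was then -0.16 with WT marrow, -0.35 with St2KO marrow and -0.24 averaged over both, close to the -0.25 without the covariate. No member was called in those fits, and in the averaged host effect 9 members had an unadjusted p under 0.05 and the lowest adjusted p was 0.0856. Epithelial markers had an interaction median of -0.31, with 13 of 14 below 0. WT_to_St2KO replicate 2 was lowest both in the mean log2 CPM of the epithelial markers (8.04) and in that of the members (5.2). St2KO_to_WT replicate 2 was highest in the epithelial mean (9.58) and next to lowest in that of the members (5.34). With the epithelial mean as the covariate the host median was -0.44 with WT marrow and -0.04 with St2KO marrow, and the interaction median was 0.42.

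**Figure D4:**
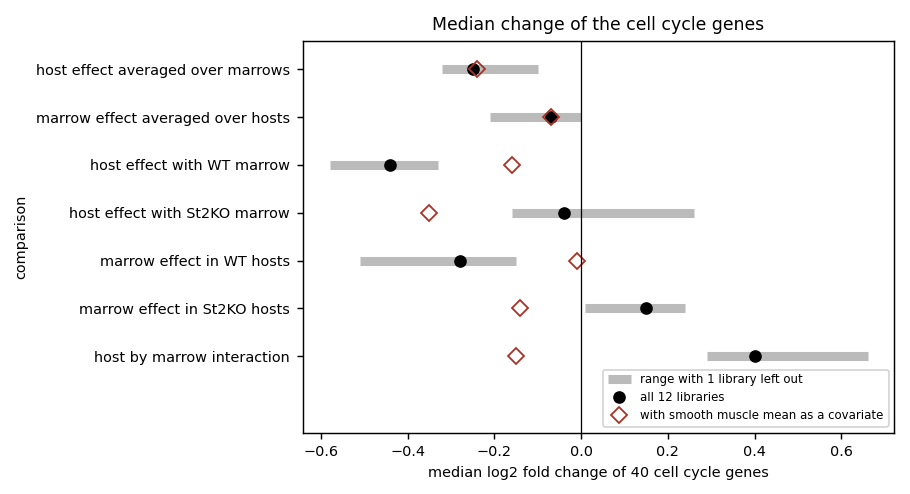
Median log2 fold change of the 40 members in each of the 7 comparisons: black points for all 12 libraries, grey bars for the range over fits without 1 library each, and open diamonds for the fit with the smooth muscle mean as a covariate. The averaged host and marrow medians hardly move with the covariate, while the interaction median goes from 0.4 to -0.15.

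**Figure D5:**
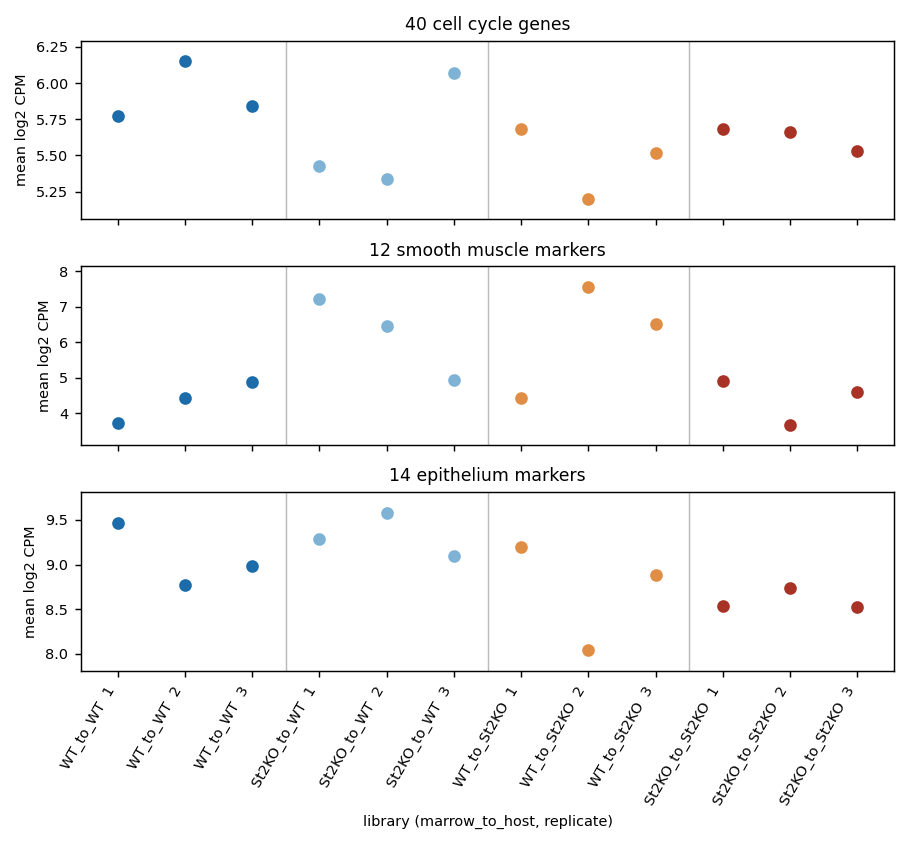
Mean log2 CPM of the 40 members (top), 12 smooth muscle markers (middle) and 14 epithelium markers (bottom) in each of the 12 libraries, 1 point per library, on axes that do not start at 0. The 4 libraries with the highest smooth muscle mean, St2KO_to_WT replicates 1 and 2 and WT_to_St2KO replicates 2 and 3, have member means of 5.43, 5.34, 5.2 and 5.52.

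Of the cell cycle genes outside the 40, those of replication and mitosis had medians below 0, while regulators and brakes lay nearer to 0. The genes named here are among the 4 of each list with the smallest p in the averaged host effect, so they are not typical of their lists. Of 45 further replication genes, 0 were called by host genotype averaged over marrows, 39 were below 0 and the median was -0.14. Among them were the flap endonuclease Fen1 at -0.33 (SE 0.11, adjusted p = 0.146) and the histone chaperone Asf1b at -0.36 (SE 0.15). Of 50 further mitosis genes, 0 were called, 47 were below 0 and the median was -0.23, with the centrosome kinase Nek2 at -0.48 (SE 0.19) and the condensin subunit Ncapg at -0.4 (SE 0.16). Of 31 further cyclins, kinases and E2F factors, 0 were called, 20 were below 0 and the median was -0.1. The lowest adjusted p there, 0.0941, was that of Cdc25b, a phosphatase that activates cyclin-dependent kinases, at -0.34 (SE 0.09), and Tfdp2, a partner of E2F factors, was at 0.31 (SE 0.1). A list of 16 genes held brakes on the cycle and, with Mdm2, a regulator of the brake p53. Of these, 0 were called, 12 were below 0 and the median was -0.07. Among them were the p21 gene Cdkn1a at -0.36 (SE 0.17, adjusted p = 0.265) and the p57 gene Cdkn1c at 1.07 (SE 0.51, adjusted p = 0.267).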

How the data were processed

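Colon tumour RNA of 12 bone marrow chimeras was measured by single-end sequencing of TruSeq libraries, per the labels' protocols. The submitters' processing notes name TopHat, Bowtie2 and the build GRCm38 (mm10). Which program counted the reads, on which annotation and with which strand setting, and all versions, are not given in the sources used here. Raw read counts for 24062 genes were deposited. Another 5 entries without a gene made up 49.8% to 53.2% of the total of each library in the WT hosts and 52.3% to 59.6% in the St2KO hosts, and were left out. Gene counts lay between 10293818 and 12962496 per library.

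The 40 members, the role groups and the other gene lists were chosen with earlier results of these data known. The filter filterByExpr (minimum count 10, groups given) kept 15060 genes, among them all 40 members, and removed 9002. Counts were scaled by TMM and fitted in R 4.3.3 with the quasi-likelihood test of edgeR 4.0.16 with robust estimation, 1 coefficient per group, and two-sided tests. The TMM factors were 0.899 to 0.986 in the WT hosts and 0.968 to 1.12 in the St2KO hosts, and a higher factor gives a lower CPM. How much of the members' host difference comes with these factors was not tested. P-values were adjusted by Benjamini-Hochberg over all 15060 genes, and a gene was called at an adjusted p under 0.05. CPM are counts scaled to library size after TMM. Means of log2 CPM used a prior count of 2. Intervals are 95% intervals of the fit. Alternatives used DESeq2 1.42.0, limma 3.58.1 (voom with quality weights), other filters, covariates, a replicate block and fits without single libraries. Values in every library are given for the 2 members of each role group with the most counts, and for the 3 members with the smallest p in each averaged effect. Ccne1 was added after its values were seen. The fitting scripts were tested on simulated data. Gene models are from GENCODE M21, and promoter sequence from RefSeq, searched with Python 3.11.15.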

Additional observations from a re-analysis of the deposited data

How the results depend on the processing

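In 157 of the 158 alternatives over the 7 comparisons, 0 members were called. The exception was the host effect with WT marrow under the Wald test of DESeq2, with 2 members called, both of which had an unadjusted p under 0.05 in edgeR as well. Leaving out each library in turn gave 0 to 0 called members in each comparison. The counts of members at an unadjusted p under 0.05 by edgeR, DESeq2 and voom were 6, 6 and 7 for the averaged host effect, 0, 0 and 1 for the averaged marrow effect, 12, 12 and 21 for the host effect with WT marrow and 0, 0 and 2 with St2KO marrow. They were 0, 2 and 19 for the marrow effect in WT hosts, 0, 0 and 1 in St2KO hosts and 4, 4 and 12 for the interaction. With weeks after AOM as a covariate the count was 15 for the averaged host effect and 22 for the host effect with WT marrow.

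Without single libraries, the members' median ran from -0.32 to -0.1 for the averaged host effect, -0.21 to 0 for the averaged marrow effect, -0.58 to -0.33 for the host effect with WT marrow and -0.16 to 0.26 with St2KO marrow. It ran from -0.51 to -0.15 for the marrow effect in WT hosts, 0.01 to 0.24 in St2KO hosts and 0.29 to 0.66 for the interaction. The averaged host value changed sign for Ccnd1 without WT_to_St2KO replicates 2 and 3 together (0.02), for Plk1 with the epithelial covariate (0.08), and with voom for Cdt1 (0.04), Mcm2 (0.13) and Mcm5 (0.02). Without single libraries it ran from -0.15 to 0.03 for Cdt1 and from -0.14 to 0.1 for Mcm2. The cause was not tested.

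With a replicate block, 0 members were called in each comparison and 152 genes in place of 206 in the averaged host effect. Of 18 same-numbered pairs of libraries, 5 had a correlation of deviations over 0.1, and 1 library correlated best with its own number, so the numbers were not taken as pairs. With 3 libraries per group, small differences were not detectable. The SE of a member reached 0.23 in the averaged effects, 0.32 in the comparisons within a single marrow or host and 0.45 in the interaction.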
